A study of Mus musculus with 2 samples.

Results

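The genes described here are 7 members of the ribonuclease A family: the eosinophil-associated ribonucleases Ear1, Ear2 and Ear10, and the angiogenins Ang, Ang2, Ang4 and Ang5. They were selected by symbol, because several of them were among the genes most enriched in alveolar macrophages of this dataset, so their levels in macrophages are a description and carry no test. All 7 were among the 17758 genes of the single-cell table, and 3 of them (Ear1, Ear2 and Ang) were among the 16906 genes of the bulk table. Both samples were peripheral lung of mice at postnatal day 3, described by the submitters as control lungs. Wild-type lung cells were sorted and profiled singly with 10x Chromium 3′ v3 chemistry. From Pdgfra-H2BGFP mice, a line in which a histone-bound green fluorescent protein marks the nuclei of cells that use the Pdgfra gene, the PDGFRA+ cells were collected and sequenced in bulk. Each group had 1 sample, and neither the gate of the single-cell sort nor the number of animals is stated in the labels.

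Ribonucleases of the A family are small secreted enzymes that cut RNA. The Ear genes are the mouse relatives of the human eosinophil-derived neurotoxin and eosinophil cationic protein, which eosinophils store in their granules, and mouse lung macrophages are also known to express Ear1 and Ear2. Angiogenins were named for their ability to induce blood vessels, and they cut transfer RNA in stressed cells; Ang4 is best known as an antimicrobial protein of intestinal Paneth cells. Alveolar macrophages settle and mature in the air spaces around birth, driven by the growth factor GM-CSF and the nuclear receptor PPARG.

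All 7 genes lie on chromosome 14 (mouse build GRCm38, GENCODE M21 annotation), each with 2 exons in its main transcript. Ear10 (43922720 to 43923559, minus strand), Ang5 (43957069 to 43963072, plus strand) and Ear2 (44102654 to 44103534, plus strand) lie close together, beside Ear1, which RefSeq places at 43818765 to 43819639 on the minus strand. Ang (51091150 to 51102009, plus strand), Ang2 (51195324 to 51199148, minus strand) and Ang4 (51763878 to 51773590, minus strand) form a second group: the RefSeq 5′ ends of Ear2 and Ang2 are 7.09 Mb apart. Ang is nested with Rnase4 and shares 219 exon bases with it on the same strand, while Ear2, Ear10, Ang2, Ang4 and Ang5 share no exon base with another gene.

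The coding sequences of Ear1, Ear2 and Ear10 were 94.5% to 97.0% identical, those of the 4 angiogenins 84.9% to 88.1%, and an Ear and an angiogenin 42.6% to 45.0%. The stretch of the coding sequence below, counted from the first base of the start codon, is shown because the separate values of the 3 Ear genes depend on such differences. Capitals mark the 9 positions at which the 3 genes are not all the same, out of 28 such positions among 468 aligned. The stretch was picked as the gap-free 90 bases with the most such positions. At most of its capitals Ear1 alone differs, so it shows little of the difference between Ear2 and Ear10. Over the whole coding sequence, Ear2 and Ear10 differ at 14 positions.
Ear1 coding bases 81 to 170: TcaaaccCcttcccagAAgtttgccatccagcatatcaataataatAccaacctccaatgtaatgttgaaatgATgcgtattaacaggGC
Ear2 coding bases 81 to 170: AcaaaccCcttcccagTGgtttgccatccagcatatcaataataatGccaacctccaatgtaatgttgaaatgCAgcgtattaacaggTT
Ear10 coding bases 81 to 170: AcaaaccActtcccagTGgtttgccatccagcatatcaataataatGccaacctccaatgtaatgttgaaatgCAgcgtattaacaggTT
A sequencing library of 3′ ends reads mostly the end of a transcript. In the last 500 bases, Ear1 and Ear2 were 95.4% identical, Ear2 and Ear10 93.6%, and Ear1 and Ear10 91.3%. Between 2.68% and 8.76% of the 90-base windows there occurred unchanged in another of the 3 Ear genes. No such window was shared between an Ear and an angiogenin, or between any 2 of the angiogenins. The sources used here do not say how reads that match several genes were treated, so a part of the 3 Ear values could be exchanged among them.

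The promoters were also alike within the Ear genes. Of the 7 genes, 6 had an entry in the RefSeq promoter table (GRCm38.p6), and the 250 bases before the start were 97.6% identical between Ear1 and Ear2, 91.7% between Ear1 and Ear10, 90.6% between Ear2 and Ear10, and 77.9% between Ang4 and Ang5. The 150 bases before the start are shown for these 5 genes because they are the members highest in macrophages with an entry. Capitals mark matches to TTGCNNAA, the C/EBP motif, or TGANTCA, the AP-1 motif, on either strand.
Ear1 promoter, chr14:43819640-43819789 (-): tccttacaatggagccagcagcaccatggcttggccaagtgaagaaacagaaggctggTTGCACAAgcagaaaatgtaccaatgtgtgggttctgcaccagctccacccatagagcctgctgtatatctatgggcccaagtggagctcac
Ear2 promoter, chr14:44102504-44102653 (+): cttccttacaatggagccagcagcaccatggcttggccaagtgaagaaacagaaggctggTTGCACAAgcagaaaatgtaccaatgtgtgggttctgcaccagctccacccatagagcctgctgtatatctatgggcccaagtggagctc
Ear10 promoter, chr14:43923597-43923746 (-): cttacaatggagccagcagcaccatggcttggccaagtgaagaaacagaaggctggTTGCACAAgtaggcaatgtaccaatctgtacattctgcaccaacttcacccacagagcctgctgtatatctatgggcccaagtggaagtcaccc
Ang4 promoter, chr14:51773591-51773740 (-): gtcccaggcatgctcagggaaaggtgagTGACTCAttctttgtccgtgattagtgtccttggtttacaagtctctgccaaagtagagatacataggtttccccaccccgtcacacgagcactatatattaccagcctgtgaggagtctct
Ang5 promoter, chr14:43956919-43957068 (+): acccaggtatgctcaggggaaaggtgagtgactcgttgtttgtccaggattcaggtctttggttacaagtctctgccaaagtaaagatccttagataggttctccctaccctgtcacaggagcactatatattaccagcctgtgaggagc
All 3 Ear promoters hold a TTGCNNAA match, which 9.56% of 32851 promoters of the same length hold, and it is the same 8 bases in each. Ang4 holds a TGANTCA match, present in 6.75% of promoters, and Ang5 does not. Neither CACGTG (6.02% of promoters) nor TATAAA (12.4%) was found in any of the 6 promoters, and GAGGAA, the core of the PU.1 motif (23.3%), was found only in that of Ang4, outside the bases shown. None of these matches was tested for binding.

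The single-cell table held 11306 cells with 709 to 3760 detected genes each. Its values are whole numbers with cell totals of only 3859 to 6899, so they were read as counts corrected for depth and not as raw molecule counts. After filtering, 10199 cells were kept in 41 clusters, named by marker genes that include no ribonuclease, and no ribonuclease gene of this family was used in clustering. The names end in "-like" for that reason. They gave 21 classes, and 6 clusters stayed unnamed (756 cells). A level is given in CPM: the values of a class, summed and expressed per 1000000. With 1 library there is no replicate error, so differences between classes were not tested, and the exact Clopper-Pearson 95% intervals given for shares of cells cover counting error only. Where a share was 0, the limit given is 3 counts of the total; it bounds the share of cells with a value, not of cells that express the gene.

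Alveolar macrophage-like cells held 1373 cells, 13.5% of those kept (12.8% to 14.1%), and all 10 of their markers were detected, among them Chil3 at 703 CPM, Plet1 at 1551 and Siglecf at 89.5. Ear2 was the most abundant member there at 1901 CPM and was detected in 99.4% of the cells (98.9% to 99.7%). Ear10 followed at 679 CPM in 91.1% of cells (89.5% to 92.6%) and Ear1 at 662 CPM in 93.6% (92.2% to 94.8%). The median cell had a value of 10 for Ear2 and 3 for both Ear1 and Ear10, and the highest Ear2 value in a cell was 65. The 3 angiogenins Ang4, Ang5 and Ang2 were lower, at 427, 339.9 and 270.1 CPM, with values in 80.9%, 73.9% and 70.1% of the cells. Ang itself stood apart from its relatives: it was at 4.94 CPM and detected in 40 of the 1373 cells, 2.91% (2.09% to 3.95%).

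**Figure D1:**
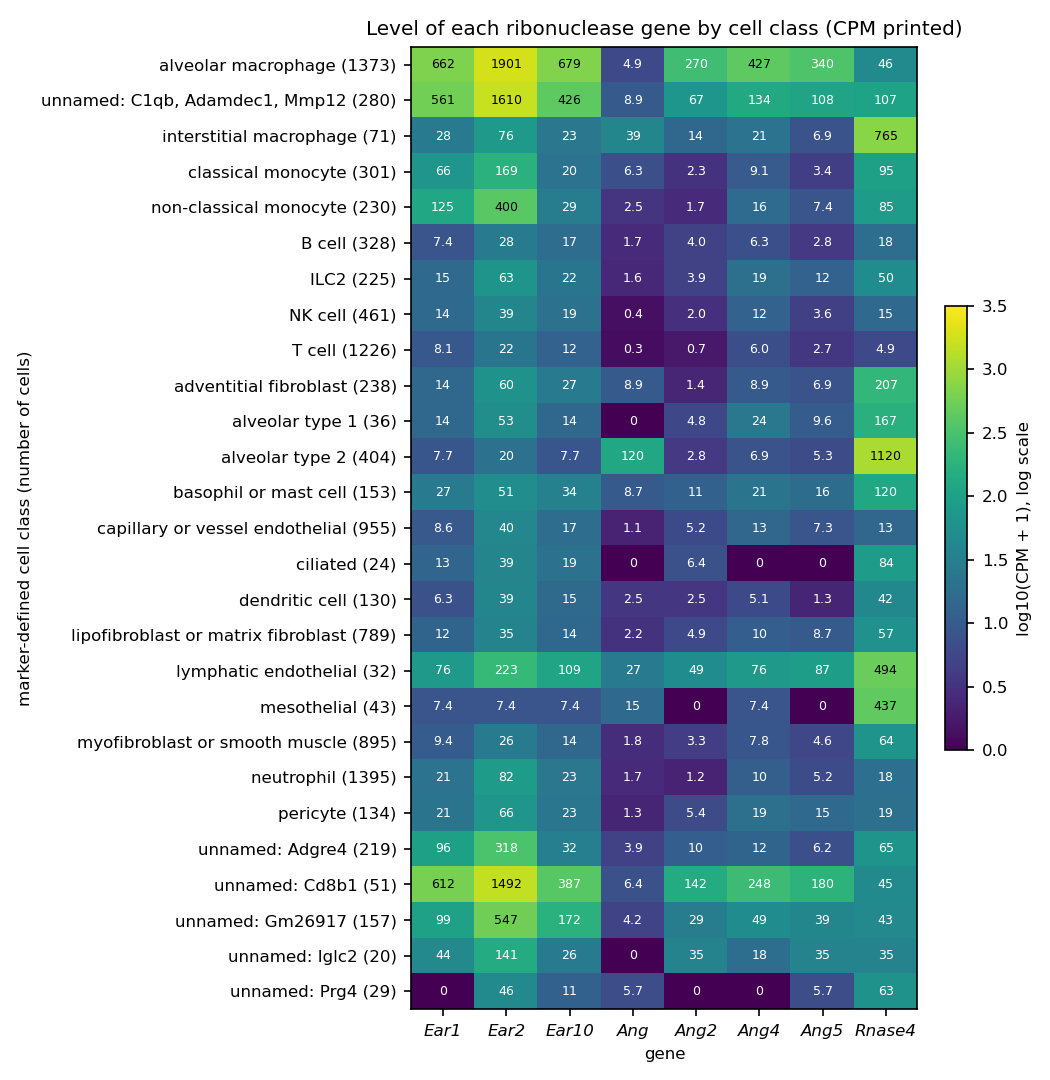
Level of the 7 genes and of Rnase4 (columns) in each marker-defined class or unnamed cluster (rows, with the number of cells), as CPM printed in each field and coloured on a log10(CPM + 1) scale. The 6 members other than Ang are highest in alveolar macrophage-like cells (270.1 to 1901 CPM), while Ang and Rnase4 are highest in alveolar type 2-like cells (119.6 and 1120.3 CPM).

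Against all other kept cells, 6 of the 7 members had a log2 ratio of 1 or more in alveolar macrophage-like cells, where 10.6% of 15397 genes with at least 20 summed values did. This contrast chose the members, so nothing is read from the count. The ratios add 1 CPM to both sides and were 5.09 for Ang2 (270.1 against 6.96 CPM), 4.80 for Ang5 (339.9 against 11.2), 4.59 for Ang4 (427 against 16.7), 4.17 for Ear10 (679 against 36.7), 3.90 for Ear1 (662 against 43.6) and 3.81 for Ear2 (1901 against 134). By size these ranked 2, 6, 7, 16, 33 and 35 of the 15397 genes. The angiogenins ranked above the Ear genes although their levels in macrophages were lower, and their levels in the other cells were lower as well. Ang was at -0.72 (4.94 against 8.79 CPM). The median of all genes was -0.14. The other cells include an unnamed macrophage cluster with high levels of these genes, and leaving out all unnamed clusters raised the 6 ratios to between 5.03 and 6.0.

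The genes of the GM-CSF and PPARG programme, the pathway under which alveolar macrophages mature, were mostly higher in alveolar macrophage-like cells than in all other kept cells together. Of 15 such genes, 14 reached a log2 ratio of at least 1, where 10.6% of all genes did, 0 lay at -1 or below, and the median was 2.49. The list includes 1 gene, Siglecf, that also helped to name the class. It was chosen with earlier results of these data known, so nothing is read from its count. The 4 with the largest ratios were Lpl (lipoprotein lipase, 1666 against 78.9 CPM, log2 ratio 4.38), Abcg1 (a cholesterol exporter, 876 against 48.7, 4.14), Siglecf (a sialic acid receptor, 89.5 against 4.31, 4.09) and Bhlhe41 (a transcription factor, 68.8 against 4.85, 3.58). Not all were highest in this class, and 2 examples were chosen after their values were seen. Csf2ra, a chain of the GM-CSF receptor, was at 154 CPM there, below non-classical monocyte-like (369 CPM) and classical monocyte-like cells (294 CPM), and Fabp5, a fatty acid-binding protein gene, was at 698 CPM there, beside 2818 CPM in alveolar type 2-like cells.

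Of the eosinophil genes measured, 3 were low in these cells. Ccr3, the eotaxin receptor, was at 0.247 CPM, Alox15, a lipoxygenase, at 0.37 CPM, and the IL-5 receptor gene Il5ra had no value in any of the 1373 cells, a limit of 0.218%. Siglecf, which serves as a marker of eosinophils and of alveolar macrophages, was at 89.5 CPM. The eosinophil list of 6 genes leaves Siglecf out, and the 3 of its genes measured in the single-cell table had no log2 ratio of 1 or more; Alox15 was at -2.02. The highest named class was basophil or mast cell-like cells for Ccr3 (27.3 CPM) and Alox15 (118 CPM), where Ear2 was at 50.9 CPM and was detected in 15.7% of 153 cells (10.3% to 22.4%). Alox15 was higher, at 632 CPM, in an unnamed cluster of 29 cells led by Prg4. Epx, Prg2 and Prg3 had no single-cell values, which left 4 of the 7 eosinophil markers, Siglecf among them. With these, no cluster scored highest for eosinophil markers, so the Ear genes were not measured in a class of eosinophils. A basophil or mast cell-like cluster of 130 cells had eosinophil as its second class, with a marker score of 3.11 beside 6.68.

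Monocytes carried Ear1 and Ear2 but little of the other members. In non-classical monocyte-like cells (230 cells), the patrolling monocytes of the blood vessels, Ear2 was at 400.2 CPM and detected in 72.2% of cells (65.9% to 77.9%), and Ear1 was at 125 CPM in 38.7% (32.4% to 45.3%). In classical monocyte-like cells (301 cells) Ear2 was at 169 CPM in 48.5% (42.7% to 54.3%) and Ear1 at 66.5 CPM in 27.9% (22.9% to 33.3%). Ear10 was at 28.9 and 20.5 CPM in these classes, and Ang2, Ang4 and Ang5 between 1.65 and 15.7 CPM. T cell-like cells, in which these genes are not known to be expressed, serve as a background. Ear2 was detected in 9.54% of these 1226 cells (7.96% to 11.3%). Ear1 was detected in 3.83% (2.83% to 5.07%) and Ear10 in 5.79% (4.55% to 7.25%). Other classes differed: Ear2 was detected in 19.0% of neutrophil-like and 6.44% of alveolar type 2-like cells. Ear10 was detected in 9.66% of adventitial fibroblast-like, 18.8% of 32 lymphatic endothelial-like and 3.71% of alveolar type 2-like cells. The median number of detected genes was 1727.5 in non-classical monocyte-like, 2173 in classical monocyte-like and 1654 in T cell-like cells. The shares with Ear1 and Ear2 lay above those of T cell-like cells in both monocyte classes. The share with Ear10 was 11.3% (7.52% to 16.1%) in non-classical and 7.31% (4.64% to 10.9%) in classical monocyte-like cells. Both Ear10 shares lie within the range of the other classes given here, and no difference was tested.

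**Figure D2:**
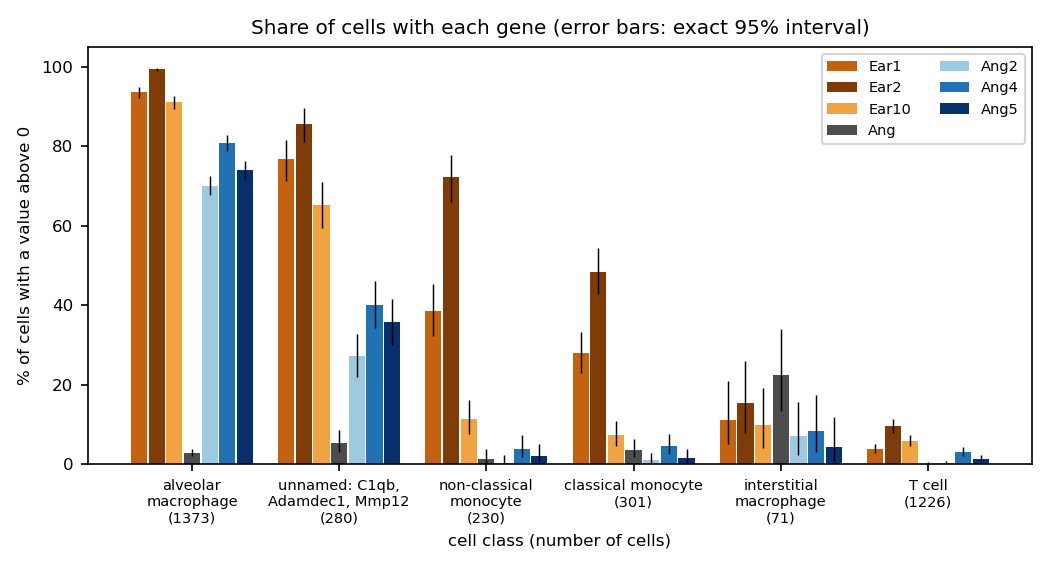
Share of cells with a value above 0 for each of the 7 genes (bars, in %) in 5 macrophage and monocyte groups and in T cell-like cells, with exact 95% intervals as error bars. Ear1 and Ear2 are detected in 27.9% to 72.2% of cells of the monocyte classes, while Ang2, Ang4 and Ang5 are detected there in at most 4.65%.

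Relative to named cells other than macrophages and monocytes, 2 of the 7 members, Ear1 and Ear2, had a log2 ratio of 1 or more in non-classical monocyte-like cells, where 8.66% of 15102 genes did. Their ratios were 3.22 and 3.22 (125 against 12.5 CPM, and 400.2 against 42.2 CPM). The same 2 members passed in classical monocyte-like cells, at 2.32 and 1.98, where 7.59% of 15118 genes did. Ear10 was at 0.73 and 0.25 in these comparisons, and Ang4 at 0.58 and -0.14.

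The level of a member can be set beside the markers that named the alveolar macrophage-like class. In non-classical monocyte-like cells, Ear1 and Ear2 were at 18.9% and 21.0% of their level in alveolar macrophage-like cells, while the 10 markers, summed, were at 1.65% (9 of 10 above 0). Ear10 was at 4.26% there, and Ang2, Ang4 and Ang5 at 0.612%, 3.68% and 2.19%. In classical monocyte-like cells Ear1 and Ear2 were at 10.0% and 8.91%, beside 3.23% for the markers (10 of 10 above 0) and 3.01% for Ear10. Single markers were at 0.608% to 14.4% there, so Ear1 and Ear2 lay below the highest single marker. In non-classical monocyte-like cells single markers were at 0% to 3.22%. In T cell-like cells the 6 members were at 0.273% to 1.71% and the markers at 1.04%.

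**Figure D3:**
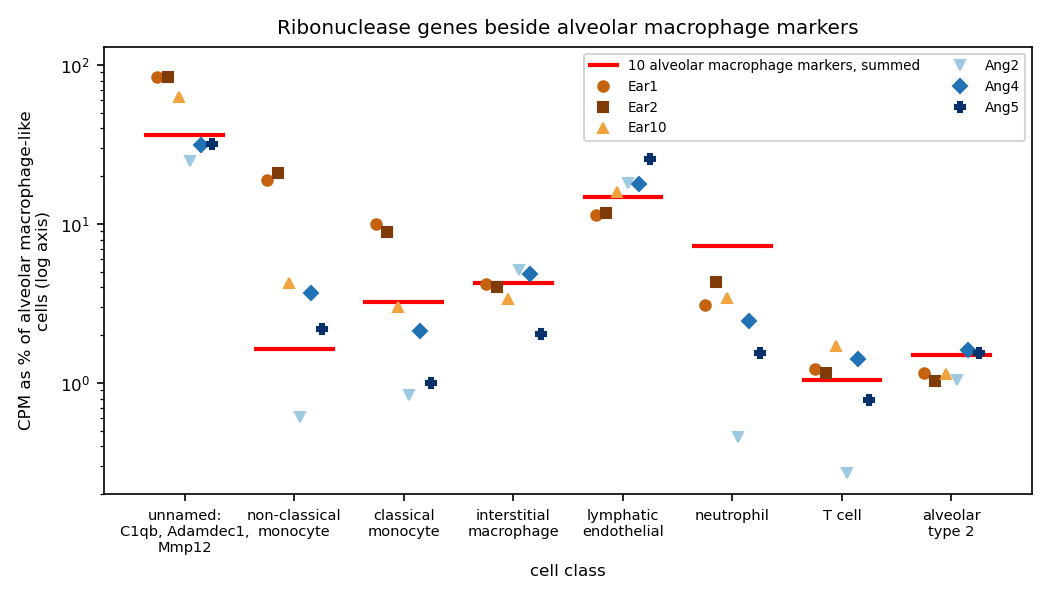
Level of 6 members (symbols) and of the 10 alveolar macrophage markers summed (red lines) in 8 cell groups, as CPM in % of the level in alveolar macrophage-like cells, on a log axis. Ear1 and Ear2 lie above this summed line in both monocyte classes (8.91% to 21.0% against 1.65% and 3.23%). Single markers, not drawn, reach 14.4% in classical monocyte-like cells. In lymphatic endothelial-like cells the members lie around the line (11.5% to 25.6% against 14.9%).

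The proportions of the 3 Ear genes to each other differed between macrophages and monocytes. For each unit of Ear2, alveolar macrophage-like cells had 0.348 of Ear1 and 0.357 of Ear10. Non-classical monocyte-like cells had 0.312 of Ear1 but 0.0723 of Ear10, and classical monocyte-like cells 0.393 and 0.121. The proportion of Ear1 thus varied from 0.312 to 0.393 over these 3 classes, and that of Ear10 from 0.0723 to 0.357. An unnamed cluster led by Adgre4 (219 cells), with markers of both neutrophils and non-classical monocytes, had 0.301 and 0.10. In T cell-like cells the proportions were 0.369 and 0.53, on 149 summed Ear2 values.

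An unnamed cluster of 280 cells, led by C1qb, Adamdec1, Fcgr2b and Mmp12, had markers of both macrophage classes: Plet1 was at 863 CPM and Chil3 at 307, and C1qa was at 841, beside 6.91 CPM in alveolar macrophage-like cells and 5745 in interstitial macrophage-like cells. Ear2 was at 1609.6 CPM in this cluster, in 85.7% of its cells (81.1% to 89.6%), and Ear1 at 561 CPM. The Ear1 and Ear2 levels were 84.6% and 84.7% of those in alveolar macrophage-like cells, and Ear10, at 426 CPM, was 62.7%. Ang2, Ang4 and Ang5, at 67.3, 134 and 108 CPM, were at 24.9%, 31.4% and 31.9%. The 10 markers, all above 0, were at 36.4% in sum, of which Plet1 and Chil3 made most, and singly at 9.86% to 55.6% with a median of 22.0%. Of the 7 members, 3 (the 3 angiogenins) had a log2 ratio of 1 or more in alveolar macrophage-like cells over this cluster, at 1.99, 1.66 and 1.64, where 6.71% of 10946 genes did. Ear1 and Ear2 were both at 0.24.

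In interstitial macrophage-like cells (71 cells), the macrophages of the lung tissue around vessels and airways, with C1qa, Pf4 (7430 CPM) and Folr2 (200.5 CPM), the Ear genes were low: Ear2 was at 76.1 CPM, Ear1 at 27.7 and Ear10 at 23.0. Ear2 was detected in 11 of the 71 cells, 15.5% (8.0% to 26.0%). In T cell-like cells the share was 9.54% (7.96% to 11.3%), and the difference was not tested. Of the 7 members, 6 had a log2 ratio of 1 or more in alveolar over interstitial macrophage-like cells, from 4.19 to 5.43, where 16.7% of 10784 genes did. In the interstitial class these ratios rest on few values: the sums were 33 for Ear2, 12 for Ear1, 10 for Ear10, 9 for Ang4, 6 for Ang2 and 3 for Ang5. Ang went the other way, at -2.76 (4.94 against 39.2 CPM). It was detected in 16 of the 71 interstitial cells, 22.5% (13.5% to 34.0%).

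Among the 17 other named classes, the 6 members apart from Ang were low. Ear2 ranged from 7.42 CPM in mesothelial-like cells to 223 in lymphatic endothelial-like cells, with a median of 39.3, and Ang2 from 0 to 48.9, with a median of 3.90. The lymphatic endothelial-like class was the second highest for Ear10 (109 CPM), Ang2 (48.9), Ang4 (76.0) and Ang5 (86.9), but it held 32 cells, of which 8 had an Ear2 value, 6 an Ear10 value and 4 to 5 a value of the angiogenins. The alveolar macrophage markers were also at their highest there among the 17 classes, at 14.9% of their level in alveolar macrophage-like cells (10 of 10 above 0), and the 6 members were at 11.5% to 25.6%. Their part in these levels was not tested. For Ear1 and Ear2 the second highest class was non-classical monocyte-like. Ear1 was detected in 21.9% of lymphatic endothelial-like cells (9.28% to 40.0%) and in 38.7% of non-classical monocyte-like cells (32.4% to 45.3%). The difference was not tested.

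Ang was the member with another pattern. It was highest in alveolar type 2-like cells, the surfactant-producing cells of the alveolus, at 119.6 CPM, and was detected in 215 of 404 cells, 53.2% (48.2% to 58.2%). These cells held 62.8% of all Ang values, against 8.55% in alveolar macrophage-like cells. Interstitial macrophage-like cells were second (39.2 CPM) and lymphatic endothelial-like cells next (27.2 CPM, 5 summed values). In alveolar type 2-like cells, 1 of the 7 members, Ang, had a log2 ratio of 1 or more over all other kept cells, at 4.84 (119.6 against 3.2 CPM), where 12.6% of genes did, and the other 6 members were between -4.30 and -3.29.

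Rnase4, the ribonuclease gene nested with Ang, had the same 3 leading classes in the same order: 1120.3 CPM in alveolar type 2-like cells, 765 in interstitial macrophage-like cells and 494 in lymphatic endothelial-like cells. It was detected in 96.5% of alveolar type 2-like cells (94.3% to 98.1%) and in all 71 interstitial macrophage-like cells. Over the 21 named classes, Rnase4 was the gene most like Ang (Pearson r = 0.80 of log2(CPM + 1), across 11272 candidate genes). The ratio of Ang to Rnase4 was 0.107 in alveolar type 2-like cells, on 294 summed Ang values. It was 0.108 in alveolar macrophage-like and 0.0512 in interstitial macrophage-like cells, on 40 and 17 summed Ang values. In the other named classes with at least 100 summed Rnase4 values it ran from 0.0288 (myofibroblast or smooth muscle-like) to 0.0940 (neutrophil-like). As the 2 genes share 219 exon bases, reads there cannot be told apart. The sources used here do not say how such reads were assigned. The single-cell library reads mostly transcript ends, and RefSeq ends Ang at 51102009 and Rnase4 at 51106151. In their last 500 bases, Ang and Rnase4 were 41.5% identical, and none of the windows compared there was shared. The part of the shared bases in the likeness of the 2 genes was not tested.

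The genes whose pattern over the 21 classes was most like that of each member were found by the same correlation. For Ear1 they were Ear2 (r = 0.95), Acaa1b, Ear10, Pnpla8 and Adipor2, and for Ear2 they were Ear1, Ear10, Usf2, Lonrf1 and Reep5. Ear10 was most like Acaa1b (0.95), which encodes a peroxisomal thiolase, Spp1 (0.95), which encodes osteopontin, F7, which encodes coagulation factor VII, Ear2 and Abcg1. Ang2 was most like Krt79 (0.92), Slc7a2, Spp1, Fabp1 and Ear10. Ang4 was most like Ang5 (0.93), Atp6v0d2, Cidec, Klhdc4 and Rtn3, and Ang5 was most like Atp6v0d2 (0.94), Ang4, Cidec, Ear6 and Ear10. Krt79, Slc7a2, Fabp1, Atp6v0d2 and Cidec are among the markers that named the alveolar macrophage-like class. All of these genes were highest in that class. For Ang, after Rnase4, came Slc10a3, Shmt1, Selenop and Renbp, with r of 0.69 to 0.71. Between members, r ran from 0.70 to 0.95 over the 15 pairs of the 6 macrophage genes, and from 0.04 to 0.25 between Ang and those 6. The class that chose the members is among the 21, and Spearman rho, which weighs it less, ran from 0.34 (Ear2 and Ang2) to 0.89 over the same 15 pairs and from 0.07 to 0.22 for Ang. The classes come from 1 library, so these values are descriptions.

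Within alveolar macrophage-like cells the members were often found together. Ear1, Ear2 and Ear10 were all detected in 1188 of the 1373 cells, 86.5% (84.6% to 88.3%), and Ang2, Ang4 and Ang5 in 722, 52.6% (49.9% to 55.3%). All 6 were detected in 656 cells, 47.8% (45.1% to 50.5%), and none of them in 2 cells. In the unnamed cluster led by C1qb the 3 Ear genes were found together in 61.1% of cells (55.1% to 66.8%) and the 3 angiogenins in 15% (11.03% to 19.7%), and 11.8% (8.25% to 16.2%) had none of the 6. In non-classical monocyte-like cells the 3 Ear genes were together in 5.65% (3.04% to 9.47%) and the 3 angiogenins in 0 of 230 cells, a limit of 1.30%.

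Across single alveolar macrophage-like cells, the levels were more alike within each gene group than between the groups, also where genes of different groups are neighbours. In the non-cycling cluster (1032 cells), Pearson r of log2(value per 10000 + 1) was 0.40 to 0.58 for the 3 pairs of Ear genes and 0.42 to 0.51 for the 3 pairs among Ang2, Ang4 and Ang5. It was 0.02 to 0.15 for the 9 pairs of an Ear gene with an angiogenin. The cycling cluster (341 cells) gave 0.44 to 0.54, 0.34 to 0.46 and 0.01 to 0.14. Ear10 and Ang5, whose RefSeq 5′ ends are 33.5 kb apart, had r of 0.15 and 0.09 in the 2 clusters. Ang4 and Ang5, 7.82 Mb apart, had r of 0.51 and 0.46, and Ear1 and Ear2, 283 kb apart, 0.58 and 0.54. The cells share a library and the members of a group share sequence. Correlations with the number of detected genes were -0.08 to 0.14 for the 6 genes in the non-cycling and 0.05 to 0.25 in the cycling cluster.

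**Figure D4:**
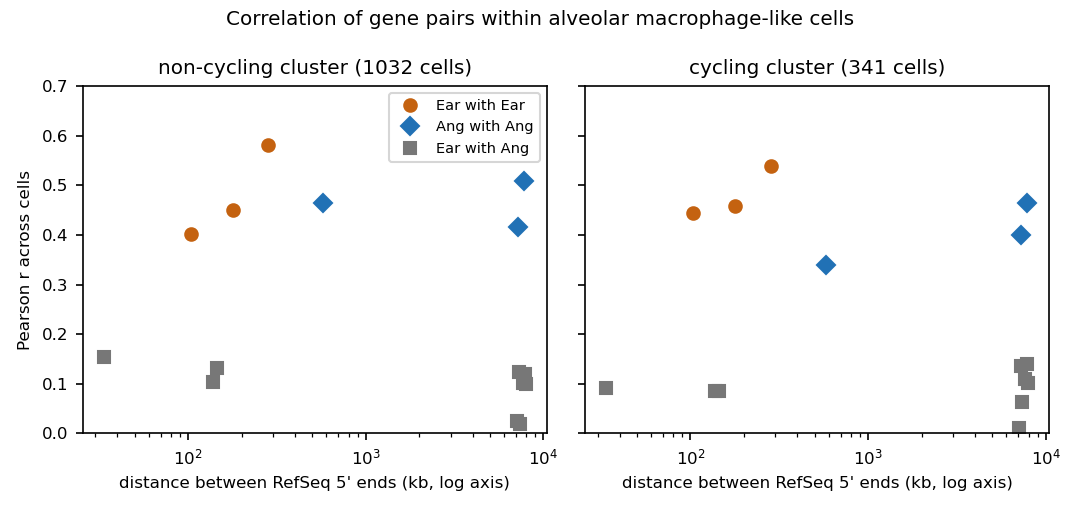
Pearson r across cells of the 15 pairs of 6 members (y axis) against the distance between their RefSeq 5′ ends on chromosome 14 (x axis, kb, log axis), in the non-cycling and the cycling alveolar macrophage-like cluster. Pairs within the Ear genes (104 to 283 kb apart) or within the angiogenins (578 kb to 7.82 Mb apart) lie at 0.34 to 0.58. Mixed pairs (33.5 kb to 7.95 Mb apart) lie at 0.01 to 0.15.

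The cycling cluster was set apart by 8 proliferation genes, among them Mki67, which summed to 3384 CPM against 133 CPM in the non-cycling cluster. It also had more detected genes (median 2947 against 2394.5). The 6 macrophage members were lower in it, by log2 ratios of -0.48 (Ear2, 1473 against 2051 CPM) to -0.19 (Ang5, 308 against 351 CPM), while the median of all genes was 0.18. None of the 7 members was at -1 or less, as 0.624% of 10572 genes were, and 1 member was at 1 or more, as 8.09% of genes were. That member was Ang, at 1.04, on 18 and 22 summed values.

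Other ribonucleases of the family followed several patterns. Ear6, 87.4% to 87.7% identical to the 3 Ear genes in its coding sequence, was highest in alveolar macrophage-like cells (74.6 CPM, 34.5% of cells), with a log2 ratio over all other cells of 3.36. Rnase2a, the mouse gene named after the human eosinophil-derived neurotoxin gene, was at 9.99 CPM there, with a ratio of 2.41. Rnase6, whose protein is an antimicrobial ribonuclease, was highest in non-classical monocyte-like cells (284 CPM, 68.7% of cells), followed by dendritic cell-like (171 CPM) and classical monocyte-like cells (140 CPM), and was at 4.44 CPM in alveolar macrophage-like cells (log2 ratio -2.33). Of the 14 other family genes listed, 7 were measured; Ear14, Rnase1 and Rnase10 had 10 to 16 summed values each in the deposited table. Rnh1, the cytosolic inhibitor that blocks these enzymes, was at 288 CPM in alveolar macrophage-like and 367 in classical monocyte-like cells, its highest class. Plxnb2, the receptor for angiogenin, was low in alveolar macrophage-like cells (10.1 CPM). It was highest in ciliated-like (225 CPM, 24 cells), non-classical monocyte-like (152 CPM) and pericyte-like cells (151 CPM), and was at 138 CPM in interstitial macrophage-like and 100.04 CPM in alveolar type 2-like cells.

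In the bulk PDGFRA+ library (171910584 reads, exact Poisson 95% intervals), Pdgfra was at 184 CPM, a percentile rank of 94.6 among the bulk genes. The 3 members with a value had percentile ranks of 19.4 (Ear1), 23.8 (Ear2) and 26.9 (Ang). Ang had 228 reads, 1.33 CPM (1.16 to 1.51), Ear2 had 144 reads, 0.838 CPM (0.706 to 0.986), and Ear1 had 75 reads, 0.436 CPM (0.343 to 0.547). In the authors' TPM, which is per length, they were at 3.56, 2.54 and 1.33. Ear10, Ang2, Ang4 and Ang5 were not analysed in that table. Rnase4 was at 89.1 CPM (87.7 to 90.5), Rnh1 at 202 CPM and Plxnb2 at 428 CPM. The bulk CPM of Ear1 and Ear2 were 0.0659% and 0.0441% of those in alveolar macrophage-like cells of the single-cell library, which is a different assay with its own scaling. All 10 alveolar macrophage markers had bulk reads, 112 CPM in sum, of which Ctsk made 93.9 CPM and Slc7a2 12.4 CPM. Of the others, Cidec, Chil3, Fabp1, Krt79, Plet1 and Atp6v0d2 were at 0.0435% to 0.152% of their alveolar macrophage-like level, and Siglecf and Marco at 0.234% and 0.305%. Their part in the Ear1 and Ear2 reads was not tested, and in a bulk sample fewer cells of a type and less RNA per cell cannot be told apart.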

How the data were processed

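The submitters' processing notes name Cell Ranger 5.0 and Seurat 3.2.2 for the cells, and for the bulk library mm10 with Trim Galore, HISAT2, featureCounts and DESeq2; bulk tool versions and the single-cell genome build are not given in the sources used here. The single-cell values deposited by the authors were treated as a score: whole numbers in which cell totals span 1.79-fold and detected genes 5.30-fold, so no Poisson interval or thinning was applied. For the bulk library the authors deposited an expected count per gene (15.9% not whole; intervals use the rounded value). The authors' TPM values, which correct for length, were used as deposited.

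Cells with under 500 genes or over 10% mitochondrial values (646) were left out, and Scrublet, run in scanpy 1.11.5 with an expected share of 5%, removed 461 doublets of 10660 cells (4.32%). Clustering used 2000 variable genes without this gene family, 30 components, 15 neighbours and leidenalg 0.10.2 at resolution 1. A cluster took the class with the highest mean centred log2 marker level (at least 1). It stayed unnamed if another lineage reached 0.5 of that score, another class of its lineage reached 0.75, under 3 markers were detected, or its top 10 genes held more markers of another class. Those limits were set after the data were seen, and the members and gene lists were chosen with earlier results of these data known.

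Named genes are the members, the measured family genes with Rnh1 and Plxnb2, the eosinophil genes, 4 programme genes by ratio and the 5 genes most like each member (at least 100 summed values and 20 CPM in a class). Members past a log2 ratio of 1 in either direction were counted by size, with no test. On simulated data for alveolar macrophage-like over other cells, planted log2 ratios of 1, 2, -1 and -2 (50 genes each, of 15391) gave medians of 0.98, 1.97, -0.98 and -1.86. Alternatives changed the cell filter, doublets, resolution, clustering genes, prior, minimum and detection limit. Identity, overlap and motifs were computed from GENCODE M21 and RefSeq.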

Additional observations from a re-analysis of the deposited data

How the results depend on the processing

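The number of members highest in alveolar macrophage-like cells was 6 under each of the 7 alternatives run, and the number with a log2 ratio of 1 or more was 6 under each of the 12 run. The share of alveolar macrophage-like cells with all 3 Ear genes was 85.6% to 86.8% with other cell filters, doublets kept, resolution 0.5 or the family allowed in clustering. It was 66.6% when a value of 2 or more counted as detected and 84.3% at Leiden resolution 2. The share with Ang2, Ang4 and Ang5 was 22.8% with the higher detection limit. At resolution 2 an alveolar macrophage cluster of 858 cells stayed unnamed, because secretory airway markers scored 2.40 beside 4.74, which left 508 cells in the class; its cells then count among the others, and the 6 log2 ratios were 2.27 to 2.96. Without unnamed clusters, an alternative added after the data were seen, they were 4.55 to 5.73 at that resolution. In the bulk library 1 member reached 1 CPM and 3 reached 1 TPM. At resolution 0.5 no cluster was named non-classical monocyte-like. Keeping doublets raised Ear2 in alveolar type 2-like cells from 19.5 to 38.4 CPM. The ratio of Ear10 to Ear2 stayed between 0.0619 and 0.164 in the monocyte classes outside resolution 2 and at 0.357 to 0.360 in alveolar macrophage-like cells. Depth correction of the values limits any reading of single low counts.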

Other observations

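Among the unnamed clusters, chosen here after their values were seen, 51 cells led by Cd8b1 carried T cell markers together with Ear2 at 1491.5 CPM in all 51 cells, and Ear1 at 612 CPM. Their alveolar macrophage markers were at 50.4% of the level in alveolar macrophage-like cells (10 of 10 above 0). The cluster led by Gm26917 (157 cells, median of 1099 detected genes) had Ear2 in 68.8% of its cells (60.9% to 75.9%) but Ear1 in 12.7% (7.96% to 19.0%) and Ear10 in 17.8% (12.2% to 24.7%). Its ratio of Ear1 to Ear2 was 0.181, against 0.348 in alveolar macrophage-like cells.

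A cluster of 29 cells led by Prg4, with Fcna, Retnla and Timd4 among its top genes, had alveolar macrophage markers at 25.5% of the level in alveolar macrophage-like cells (8 of 10 above 0). Marco, a macrophage receptor gene, made 524 of their 1155 CPM in sum, and the median marker was at 4.65%. Alox15, a gene of the eosinophil list, was at 632 CPM there, in 55.2% of cells (35.7% to 73.6%). The marker score of the cluster was highest for interstitial macrophage (5.15), with eosinophil second (2.10). Ear1, Ang2 and Ang4 had no value in its 29 cells, where 3 counts would be 10.3% of cells, and Ear2 was detected in 4 of them.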
